A study of Mus musculus with 8 samples.

Results

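Integrins, selectins and other cell adhesion molecules were followed in macrophages sorted from mouse mammary tumours. The set comprised 39 genes: 23 integrin chains, 3 immunoglobulin-type counter-receptors of integrins (Icam1, Icam2 and Vcam1), 3 junctional adhesion molecules, 4 genes of the selectin system and 6 further adhesion molecules. Where several probe sets carried a gene's symbol alone, the one with the brightest mean over the 8 arrays stood for the gene. All 39 had such a probe set, of 18193 genes on the array. The filter on low signal, a mean of at least log2 5.998, was passed by 34, and the 5 below it (Itga2, Itga5, Itga7, Itgb6 and Sele) are given as values without a test. The filter used the mean of both groups, so a gene near it could pass through its higher group alone, as Jam3 did. The same holds for genes of the further lists, named where it applies.

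Cells were taken from mammary tumours of 80-day-old mice of the FVB strain bearing PyMT, an oncogene of viral origin that gives rise to these tumours. They were F4/80+ tumour-associated macrophages isolated by flow sorting, and their RNA was hybridised to Affymetrix arrays. The control group, PyMT;E2f3 f/f, had 4 arrays, lettered B, C, D and G. The second group, PyMT;Lys Cre:E2f3 f/f and called E2f3-deleted here, had 4, lettered A, E, F and H, which are the replicate names used throughout. Both groups carry PyMT and the floxed E2f3 allele. Lys Cre is a recombinase under control of the lysozyme gene, whose expression marks myeloid cells, and no group carries it without the floxed allele, so loss of E2f3 and presence of Cre cannot be told apart. Whether each array came from a separate animal is not stated in the labels, so p-values rest on the spread among these samples alone, part of which could be technical.

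Integrins are receptors of 1 alpha and 1 beta chain that bind matrix proteins or adhesion molecules on other cells once talin and kindlin engage the beta chain from inside. The beta2 family is restricted to leukocytes, and macrophages use it to adhere, migrate and take up complement-coated particles. Selectins on activated endothelium and platelets catch circulating leukocytes through carbohydrate ligands, after which integrins and their counter-receptors hold the cells and junctional adhesion molecules take part in their passage through the vessel wall.

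The 8 arrays had log2 medians of 5.65 to 5.69. Among the E2f3-deleted arrays H had the lowest mean correlation with its own group, 0.983, against 0.990 to 0.991 for the other E2f3-deleted arrays and 0.994 to 0.995 for the controls, and differences that rest on it are given with and without it. The E2f3 transcript had log2 signals of 7.58 to 7.83 in controls and 7.53 to 7.79 in E2f3-deleted macrophages, and since the labels do not name the deleted part of the gene, this does not check the genotype. All 15 macrophage markers examined passed the filter, among them Adgre1, which encodes F4/80, and Lyz2, at 14.56 in controls and 14.42 in E2f3-deleted arrays.

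In the whole set 0 of 34 tested genes passed an adjusted p of 0.05, as did 0% of the 10916 genes tested (limma, Benjamini-Hochberg over all genes tested, smallest adjusted p = 0.153, that of Jam2). Beside that count, 1547 genes had an unadjusted p under 0.05. A difference here is the E2f3-deleted mean minus the control mean of the deposited log2 signals, with the limma standard error (SE) and, where given, the 95% confidence interval, and signals are compared between arrays for one probe set at a time. At an unadjusted p under 0.05 there were 7 of 34 (20.6%) against a background of 14.2% of all genes tested. Of these, 6 were higher in E2f3-deleted macrophages (Jam2, Itga1, Itgb8, Jam3, Itga8 and Itga3), where the background in that direction was 7.27%, and 1, Itgal, was lower, where it was 6.9%. In 5 of 34 (14.7%) the groups' values, 4 against 4, did not overlap, against 8.48% of all genes tested. Jam2, Itga1, Itga8 and Itga2b were the higher ones (background 4.26%) and Itgax the lower (background 4.22%). With no filter on signal, 10 of 39 had an unadjusted p under 0.05 (background 11.9%) and 7 did not overlap (background 7.06%). The median difference of the 34 was 0.011, with 18 higher and 16 lower, beside −0.028 over all genes tested, of which 41.3% were higher. Both counts depended on which arrays entered. Without E2f3-deleted replicate E, 12 of 34 had an unadjusted p under 0.05 (background 17%) and 10 did not overlap (background 16.7%). There 60 of 10916 genes (0.55%) passed an adjusted p of 0.05, Jam2 and Jam3 among them. Jam3 entered these counts, and the 7 and 6 above, only through its E2f3-deleted arrays. Without H the counts were 11 (background 13.8%) and 7 (background 12.7%), and 14 genes (0.128%) passed, none of them an adhesion gene. Without control C, 4 had an unadjusted p under 0.05 (background 11.1%), and without control D, 9 did not overlap (background 14.6%). Role by role the medians were unlike, at −0.32 for the 4 beta2 family genes and 0.70 for the 3 junctional adhesion molecules. The latter median is the value of Jam3, which passed the filter through its E2f3-deleted arrays, so it is a description only.

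**Figure D1:**
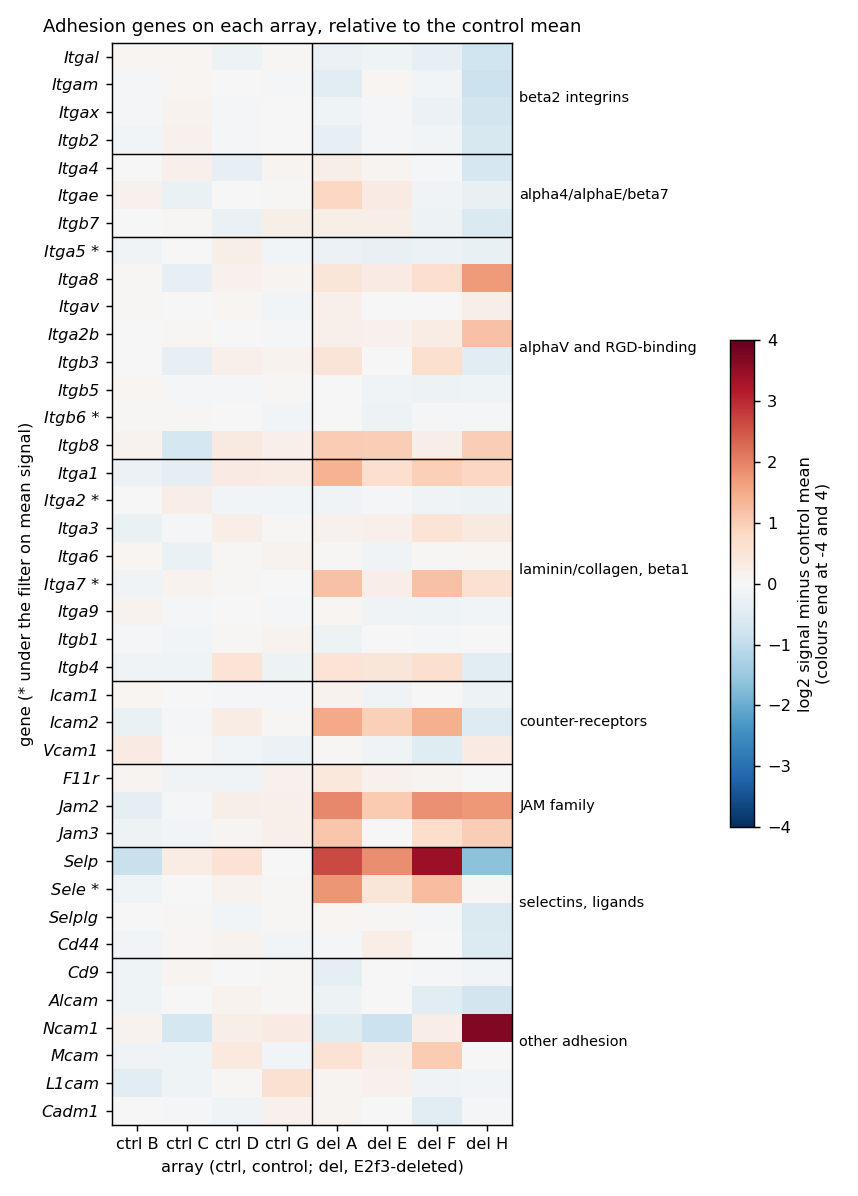
Log2 signal of the 39 adhesion genes (rows, grouped by role) on the 8 arrays (columns), as the difference from each gene's control mean; asterisks mark the 5 genes under the filter. Jam2 is high on all 4 E2f3-deleted arrays, Selp, Sele and Icam2 are high on A, E and F but not H, and Ncam1 is high on H alone.

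**Figure D2:**
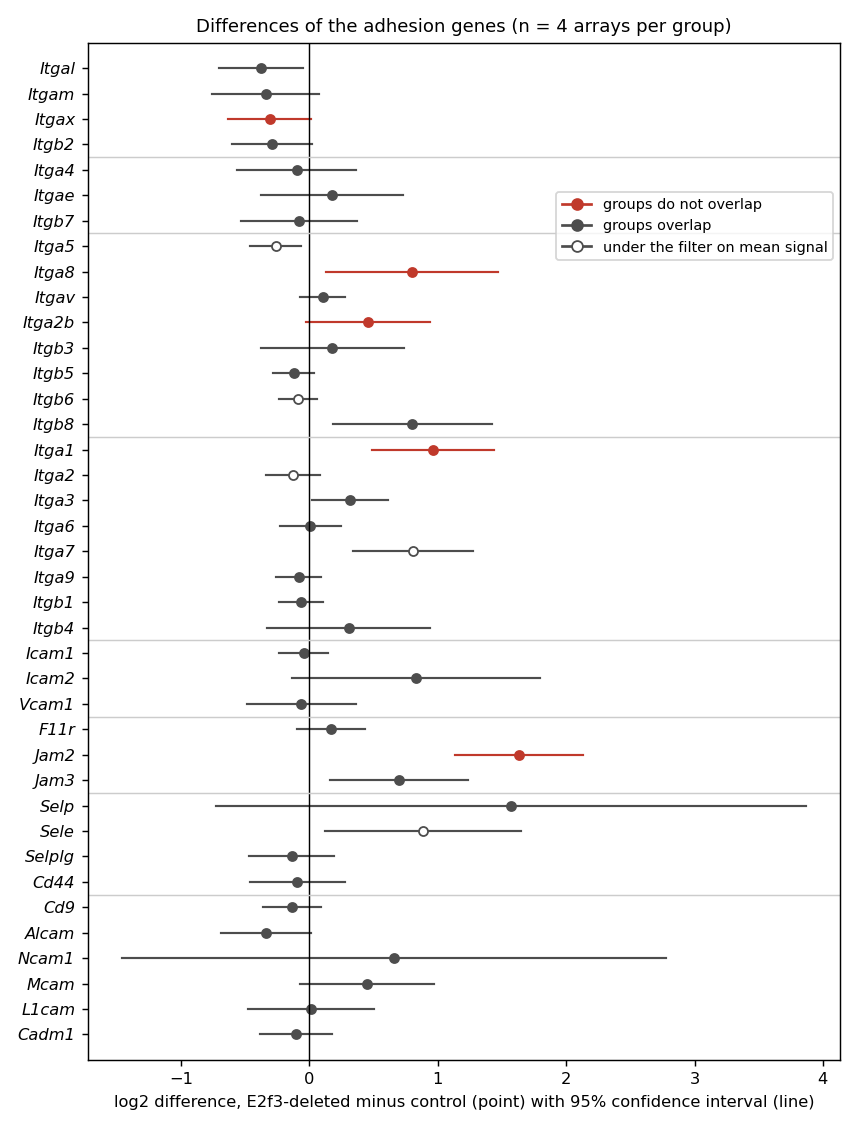
Log2 difference, E2f3-deleted minus control (x axis), of each of the 39 genes with its 95% confidence interval from limma, n = 4 arrays per group. The 5 tested genes whose groups do not overlap are in red, open points lie under the filter (of these, Itga7 and Itga5 also did not overlap), and the intervals of Selp and Ncam1 are the widest.

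Upstream sequences are shown for the tested genes whose groups did not overlap, so that the regions read by the transcription machinery can be set beside their values. A window was at hand for 4 of these 5, from RefSeq on build GRCm38.p6, and for 25 of the 39 genes in all (28 windows, of which those of L1cam overlap each other). Each window is the 250 bases before the annotated transcript start, 5′ to 3′ on the gene's strand. Capitals mark AGGAAG or its reverse complement, letters that hold the core GGAA recognised by ETS factors. The shorter core on its own was neither marked nor counted.
Itga1: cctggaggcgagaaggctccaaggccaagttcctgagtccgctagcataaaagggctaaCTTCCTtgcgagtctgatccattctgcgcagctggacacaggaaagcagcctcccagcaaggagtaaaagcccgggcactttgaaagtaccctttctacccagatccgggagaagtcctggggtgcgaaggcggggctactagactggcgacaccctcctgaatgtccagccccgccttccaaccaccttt
Itga8: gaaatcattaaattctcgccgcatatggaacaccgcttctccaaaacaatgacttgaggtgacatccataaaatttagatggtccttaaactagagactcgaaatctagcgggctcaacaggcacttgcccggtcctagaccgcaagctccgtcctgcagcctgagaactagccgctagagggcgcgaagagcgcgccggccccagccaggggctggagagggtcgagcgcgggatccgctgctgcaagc
Itga2b: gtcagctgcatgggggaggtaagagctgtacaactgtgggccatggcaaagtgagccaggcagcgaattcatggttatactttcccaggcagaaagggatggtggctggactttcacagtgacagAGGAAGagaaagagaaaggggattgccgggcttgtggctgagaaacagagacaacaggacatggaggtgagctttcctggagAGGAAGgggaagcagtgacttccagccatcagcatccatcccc
Itgax: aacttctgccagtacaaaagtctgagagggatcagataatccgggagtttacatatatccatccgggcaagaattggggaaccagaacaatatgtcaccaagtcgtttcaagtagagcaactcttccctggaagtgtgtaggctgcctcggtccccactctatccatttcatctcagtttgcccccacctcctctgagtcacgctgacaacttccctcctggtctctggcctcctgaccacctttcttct
The windows lie at chr13:115101965-115102214 (minus strand), chr2:12301945-12302194 (minus strand), chr11:102469884-102470133 (minus strand) and chr7:128129300-128129549 (plus strand). In Itga2b the letters AGGAAG occurred at 2 places, from 125 to 120 and from 43 to 38 bases before the start, and in Itga1 the reverse complement occurred once, from 191 to 186 bases before it. They were not found in the windows of Itga8 and Itgax. Over both strands AGGAAG was present in 15 of 28 member windows (53.6%) and in 29.5% of all 32851 windows of the table. The E2F letters TTTGGCGC or TTTCGCGC were in 0 of 28 member windows and 0.654% of all. The GC box GGGCGG was in 14 of 28 (50%) and in 32.7% of all, and in none of the 4 shown. The TATA letters TATAAA were in 1 of 28 (3.57%, that of Sele) and in 12.4% of all. No matches of different motifs overlapped in the 4 windows shown. A match or its absence describes only these letters in these windows.

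The beta2 integrins are the chains by which myeloid cells are usually recognised: Itgal, Itgam and Itgax encode the alpha chains of LFA-1, Mac-1 and p150,95, and Itgb2 encodes their common partner. All 4 had lower mean signals in E2f3-deleted macrophages, by 1.22 to 1.30-fold, and none passed the adjusted threshold. Itgal had log2 signals of 9.25, 9.26, 8.98 and 9.22 in control replicates B, C, D and G, and of 8.94, 9.02, 8.86 and 8.38 in A, E, F and H, the E2f3-deleted ones. Control D was the one control within reach of the E2f3-deleted values, and H was the lowest of the 8. The difference of Itgal was −0.38 (SE 0.14, unadjusted p = 0.0290, limma adjusted p = 0.301), and −0.24 without replicate H. Its second probe set differed by −0.18.

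Itgax, also a marker of dendritic cells, gave 11.59, 11.77, 11.54 and 11.60 in controls and 11.45, 11.53, 11.39 and 10.88 in E2f3-deleted macrophages. The groups did not overlap, but the gap between control D and E2f3-deleted E was narrow and H lay well below the rest. Its difference was −0.31 (SE 0.14, limma adjusted p = 0.366) and −0.17 without H. Itgam ranged from 9.61 to 9.75 in controls, and the E2f3-deleted values were 9.21, 9.74, 9.55 and 8.82. Replicate E lay inside the control range, and A, F and H below it. The difference of Itgam was −0.34 (SE 0.18, limma adjusted p = 0.424) and −0.17 without H. For the shared chain Itgb2 the signals were 12.94, 13.24, 12.99 and 13.09 in controls and 12.74, 13.01, 12.94 and 12.41 in E2f3-deleted macrophages. That is a difference of −0.29 (SE 0.14, limma adjusted p = 0.378), or −0.17 without H. In each of the 4 genes H was the lowest of all arrays, so leaving it out brought the differences of Itgal, Itgam, Itgax and Itgb2 to 0.24 or less in size, while leaving out E took them to between −0.37 and −0.47. Macrophage markers were lower in 14 of 15 genes (median −0.13). Over all genes tested 41.3% were higher and the median was −0.028, the background for this and later counts of direction. Of the macrophage markers 4, Mertk (−0.39), Cd68 (−0.29), Sirpa (−0.19) and Adgre1 (−0.18), did not overlap between groups (26.7%, background 8.48%, and 4.22% for lower). Their per-array medians were −0.18, −0.075, −0.069 and −0.16 in A, E, F and H. Lymphocyte markers, of which 5 of 11 passed the filter, were lower in 5 of 5, with medians relative to the control mean of −0.30, −0.41, −0.094 and −1.60 in A, E, F and H and a summed linear signal of 845 to 1937 in controls and 605 to 1145 in E2f3-deleted arrays. Cd3d, Cd3g, Cd8a, Cd8b1, Cd79a and Ncr1 were under the filter. Ms4a1, with means of 7.11 in controls and 5.66 in E2f3-deleted arrays, passed it through the controls, of which B and G were high (8.87 and 9.49). Dendritic cell markers, lower in 3 of 4 past the filter, had medians of 0.022, 0.056, −0.10 and −0.39 in A, E, F and H. The part of these cell types in the beta2 values was not tested. In sorted bulk RNA, fewer cells of a type and less RNA per cell cannot be told apart.

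Itga4 and Itgb7 form the alpha4beta7 receptor and Itgae pairs with Itgb7. Their group values overlapped widely. Itga4, which also pairs with Itgb1 to bind Vcam1, gave 8.44, 8.65, 8.11 and 8.53 in controls and 8.65, 8.56, 8.35 and 7.77 in E2f3-deleted macrophages, a difference of −0.10 (SE 0.20) that turned to 0.089 without H. Itgae, a chain of tissue-resident lymphocytes and some dendritic cells, gave 6.26, 5.82, 6.10 and 6.12 and 6.91, 6.40, 5.93 and 5.76. A was the highest array, and its difference was 0.18 (SE 0.24) with all arrays and −0.043 without A. Itgb7 had −0.081 (SE 0.20), and 0.088 without H. H was the lowest of the 8 arrays for each of these 3 genes.

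Among the alphaV and other chains that bind the RGD sequence of matrix proteins, Itgb8, Itga8 and Itga2b were higher and the abundant partners Itgav and Itgb5 were near 0. Itgb8, which with Itgav releases active TGF-beta from its latent form, had signals of 8.16, 7.29, 8.36 and 8.20 in controls and 9.02, 8.99, 8.23 and 8.98 in E2f3-deleted macrophages. A, E and H exceeded all controls, F lay inside their range, and control C was low. Its difference was 0.80 (a 1.74-fold higher mean, SE 0.27, interval 0.18 to 1.42, limma adjusted p = 0.274), and it ranged from 0.56 without control C to 0.99 without F. Itga8, a receptor of nephronectin found on smooth muscle and fibroblast-type cells, gave 8.20, 7.82, 8.31 and 8.28 and 8.64, 8.47, 8.82 and 9.87. The groups did not overlap, and H stood above the other E2f3-deleted arrays. Its difference of 0.80 (SE 0.29, limma adjusted p = 0.292) became 0.49 without H (limma adjusted p = 0.190). On its other, dim probe set the difference was 0.36 and the groups overlapped. There A lay below all controls, at 4.03, and E, F and H above them.

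Itga2b encodes the alpha chain of the platelet fibrinogen receptor. It had 7.15, 7.16, 7.12 and 7.07 in the controls, which were within 0.1 of one another, and 7.34, 7.29, 7.43 and 8.29 in E2f3-deleted macrophages. All 4 E2f3-deleted arrays exceeded all controls, with H far above A, E and F. The difference was 0.46 (SE 0.21, limma adjusted p = 0.373), and 0.22 without H. Of 8 platelet markers 3 passed the filter (Pf4, Gp9 and Treml1), all lower, with per-array medians of −0.00065, 0.027, −0.040 and −0.48 in A, E, F and H. Of those under it, Ppbp (0.19) and Clec1b (0.18) had differences above 0, and Gp1bb, Gp5 and Gp6 below 0. Mast cell markers were higher in 6 of 6 genes past the filter, of which Mcpt4 and Tpsb2 had control means under it, with per-array medians of 0.56, 1.39, −0.35 and 3.59 in A, E, F and H and −0.38 to 0.29 in controls. Fibroblast markers, in 10 of 10, had 0.92, −0.37, −0.046 and 2.16 and −0.50 to 0.41. Over all 8 mast cell markers with a probe set, the summed linear signal was 626 to 959 in controls and 898 to 12894 in E2f3-deleted arrays. That of the fibroblast list was 8262 to 19346 in controls and 10223 to 44898 in E2f3-deleted arrays. The part of platelets, mast cells and fibroblasts in Itga8 and Itga2b was not tested.

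Itgav, common to the alphaV receptors, had signals of 11.73, 11.68, 11.76 and 11.59 and 11.89, 11.70, 11.66 and 11.92 and a difference of 0.10 (interval −0.073 to 0.28), or 0.061 without H. The bright Itgb5, its partner in binding vitronectin, gave 13.16, 13.03, 12.98 and 13.13 in controls and 13.10, 12.95, 12.89 and 12.89 in E2f3-deleted macrophages. That gave a difference of −0.12 (interval −0.28 to 0.040), and its other 3 probe sets were lower as well, from −0.16 to −0.07. Itgb3, the beta chain of the platelet and osteoclast receptors, had 0.18 (interval −0.38 to 0.74), with A and F above the controls and H below them, and 0.027 without F or 0.39 without H. Itga5, the fibronectin receptor chain, lay under the filter at 5.73 and 5.47, and all 4 E2f3-deleted values were below all controls (difference −0.26, SE 0.088). Itgb6, an epithelial chain, was dim on every array, at 3.63 and 3.54.

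**Figure D3:**
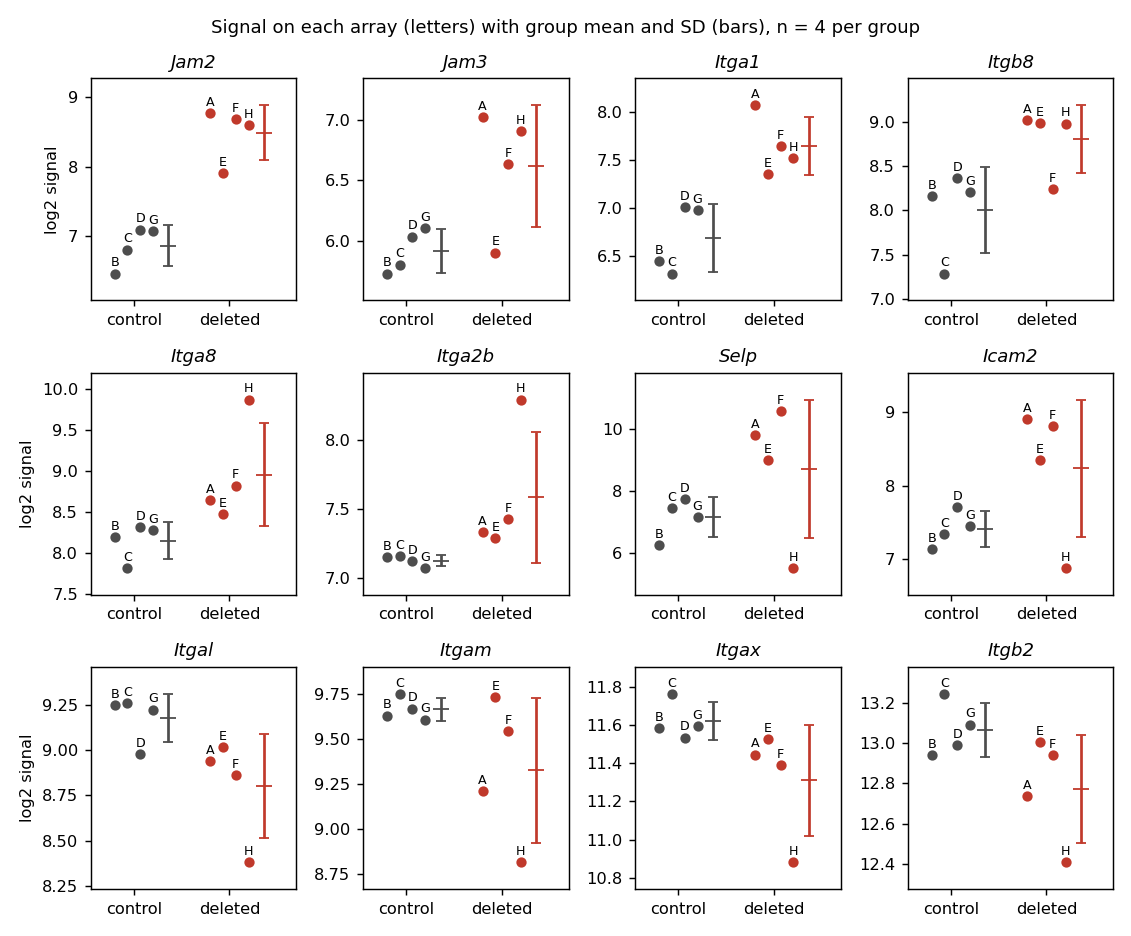
Log2 signal (y axes, each to its own scale and not starting at 0) of 12 adhesion genes on the control and E2f3-deleted arrays, labelled by replicate letter, with group mean and SD (n = 4). The E2f3-deleted values of Jam2, Itga1, Itga8 and Itga2b lie above all controls, those of Itgax below, and replicate H is the lowest array for Selp, Icam2 and the 4 beta2 integrins.

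Of the collagen and laminin receptors Itga1 had the smallest p. It encodes the alpha chain of a collagen receptor that prefers collagen IV and is found on smooth muscle, microvascular endothelium and some lymphocytes. Controls had 6.45, 6.32, 7.01 and 6.98 and E2f3-deleted arrays 8.07, 7.36, 7.64 and 7.52. Every E2f3-deleted value was above every control, with A the highest and H near E and F. The difference was 0.96, a 1.95-fold higher mean (SE 0.21, interval 0.48 to 1.44, unadjusted p = 0.00160, limma adjusted p = 0.186). It moved little when any 1 array was left out, from 0.82 to 1.07. Itga7, a laminin receptor of muscle and vessel walls, lay just under the filter, at 5.28, 5.56, 5.46 and 5.40 in controls and 6.61, 5.68, 6.61 and 6.03 in E2f3-deleted macrophages. These groups did not overlap either, with A and F high and E close to the controls (difference 0.81, SE 0.20). Itga3, a laminin receptor of epithelium and endothelium, gave 7.21, 7.41, 7.74 and 7.51 and 7.63, 7.66, 8.01 and 7.84, a difference of 0.32 (SE 0.13, unadjusted p = 0.0377, limma adjusted p = 0.324). Another probe set of Itga3 past the filter differed by only 0.054, and a dim one had −0.12. Averaging its probe sets gave 0.082. On the brightest, only F and H exceeded the highest control.

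The chains of the widest use had differences near 0. Itgb1, the partner of most collagen, laminin and fibronectin receptor chains, had a difference of −0.068 (interval −0.24 to 0.10). Its values were 10.37, 10.36, 10.52 and 10.60 in controls and 10.27, 10.45, 10.41 and 10.44 in E2f3-deleted macrophages. Itga6, a laminin receptor chain, had 0.0081 (interval −0.23 to 0.24), with signals of 10.80, 10.45, 10.76 and 10.88 and 10.76, 10.57, 10.78 and 10.81. All E2f3-deleted values lay inside the control range. Itga9, which binds tenascin and Vcam1, had −0.083 (interval −0.26 to 0.091). Itgb4, the epithelial partner of Itga6, was high in control D (7.47) and in A, E and F (7.47, 7.42 and 7.58), with a difference of 0.31 that was 0.19 without F and 0.57 without H. It was low in the other controls (6.72 to 6.77) and in H (6.46). Epithelial markers, higher in 12 of 13 with a summed linear signal of 6803 to 14719 in controls and 7528 to 17725 in E2f3-deleted arrays, were above their control means on those same arrays, by 0.75 in control D and 0.32, 0.84 and 0.83 in A, E and F, and at −0.25 in H; their part in Itgb4 was not tested. Itga2, a collagen receptor chain, was under the filter at 4.45 and 4.32.

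Junctional adhesion molecules all had differences above 0, and Jam2 had the smallest p of the whole set. Jam2 encodes a membrane protein of endothelial junctions that binds the product of Jam3 and, through it, leukocytes. Its signals were 6.46, 6.80, 7.09 and 7.07 in controls and 8.78, 7.91, 8.68 and 8.60 in E2f3-deleted macrophages. The lowest E2f3-deleted array, E, was above the highest control, and H was as high as F. The difference was 1.63, or 3.10-fold (SE 0.22, interval 1.14 to 2.13, unadjusted p = 6.10e-05, limma adjusted p = 0.153). It was 1.60 without H and between 1.50 and 1.83 whichever array was left out; without E it passed the threshold (limma adjusted p = 0.00760).

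All 5 Jam2 probe sets gave a difference above 0. The second brightest had 5.84, 6.68, 6.72 and 6.64 in controls and 9.18, 7.98, 8.77 and 8.37 in E2f3-deleted macrophages (difference 2.11, SE 0.28, limma adjusted p among all probe sets = 0.175). The third had a difference of 1.39, again without overlap, and the 2 dim ones of 0.75 and 0.18. Jam3, found on endothelium, platelets and smooth muscle, had 5.73, 5.80, 6.04 and 6.11 in controls and 7.02, 5.90, 6.63 and 6.91 in E2f3-deleted macrophages. A, F and H exceeded the controls while E lay among them (difference 0.70, SE 0.23, limma adjusted p = 0.275). Its control mean of 5.92 was under the filter, which it passed through the E2f3-deleted arrays, and without E its difference was 0.93 (limma adjusted p = 0.0372). A dim probe set of Jam3 had 0.032. F11r, which encodes JAM-A on leukocytes, epithelium and endothelium, had 10.86, 10.61, 10.60 and 10.91 and 11.18, 10.91, 10.86 and 10.71 and a difference of 0.17 (interval −0.10 to 0.44), which was 0.083 without A. Its other, dim probe set had −0.070.

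P-selectin, encoded by Selp, is stored in endothelial cells and platelets. Its brightest probe set had signals of 6.26, 7.46, 7.75 and 7.16 in controls and 9.80, 9.01, 10.58 and 5.53 in E2f3-deleted macrophages. A, E and F were all above the highest control, whereas H was below the lowest. With that spread the difference of 1.57 had an SE of 1.00 and an interval from −0.73 to 3.87 (limma adjusted p = 0.493). Without F it was 0.95 and without H 2.64 (limma adjusted p = 0.0715). The other 2 Selp probe sets followed the same order of arrays, with 9.10, 8.18, 9.92 and 5.85 and 8.24, 7.88, 9.55 and 4.71 in A, E, F and H. Sele, the endothelial E-selectin, was dim, at 2.99, 3.17, 3.31 and 3.24 in controls and 4.95, 3.67, 4.41 and 3.22 in E2f3-deleted macrophages, again with A, E and F above the controls and H among them. On the leukocyte side of the system differences were small. Selplg, the main ligand of P-selectin on myeloid cells, had 12.02, 12.04, 11.88 and 12.06 and 12.09, 12.04, 11.92 and 11.41 (difference −0.14, interval −0.47 to 0.20, and 0.016 without H). Cd44, a hyaluronan receptor that also carries selectin ligands, had −0.092 (interval −0.46 to 0.28), and 0.058 without H.

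Icam2, the integrin counter-receptor of resting endothelium, went with the selectins. Controls had 7.13, 7.33, 7.71 and 7.45 and E2f3-deleted arrays 8.91, 8.35, 8.81 and 6.88. A, E and F lay above all controls and H below them (difference 0.83, SE 0.42, limma adjusted p = 0.407). The value without H was 1.28 (limma adjusted p = 0.0592). Icam1 and Vcam1, the counter-receptors that inflammatory signals induce, overlapped between groups. Icam1 had a difference of −0.044 (interval −0.24 to 0.15). Vcam1 gave 11.88, 11.60, 11.46 and 11.33 in controls and 11.62, 11.42, 11.09 and 11.90 in E2f3-deleted macrophages, a difference of −0.061 (interval −0.48 to 0.36) that was −0.19 without H and 0.078 without F.

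Endothelial markers that are not in the adhesion set were high on the same arrays. Of 18, 17 passed the filter, and Cdh5 did not. All 17 had a difference above 0 (background 41.3%), 15 at an unadjusted p under 0.05 (background 14.2%), and 2, Erg and Clec14a, did not overlap between groups (background 8.48%). These counts are a description only, since Tie1, Emcn, Erg, Robo4 and Clec14a, 5 of the 17, had control means under the filter and passed it through the E2f3-deleted arrays. Relative to the control mean their median was 2.06, 1.09, 2.08 and 0.043 in A, E, F and H, and −0.47 to 0.44 in controls. The summed linear signal of all 18 endothelial markers, Cdh5 included, was 1910 to 3853 in controls and 2886 to 13236 in E2f3-deleted arrays. Pericyte and smooth muscle markers were higher in 8 of 9, with medians of 1.34, 0.32, 1.45 and −0.41 on A, E, F and H and a summed linear signal of 4941 to 6038 in controls and 3705 to 15027 in E2f3-deleted arrays. Selp, Sele and Icam2 stood above the controls on A, E and F, where the endothelial median did too, and on H were within or below the control range. Jam2, Jam3 and Itga1 also exceeded the highest control on H, as did genes of several lists. Among them were the endothelial Clec14a (6.93 against a control maximum of 5.80) and Erg (6.23 against 6.20), and Cd34 (8.97 against 8.89). The pericyte genes Kcnj8 (6.72 against 6.53) and Abcc9 (8.83 against 8.53) and the fibroblast gene Pdgfrb (10.58 against 9.71) did so too. Every other fibroblast marker except Col1a2 also did so, for example Dcn (13.23 against 10.68). Each mast cell marker past the filter did as well, for example Cpa3 (12.88 against 8.34). The other endothelial and pericyte or muscle markers past the filter did not exceed the highest control on H. The endothelial median on H was 0.043 and the pericyte and smooth muscle median −0.41. On H the fibroblast and mast cell medians were 2.16 and 3.59. The part of any of these cells in the adhesion gene values was not tested.

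**Figure D4:**
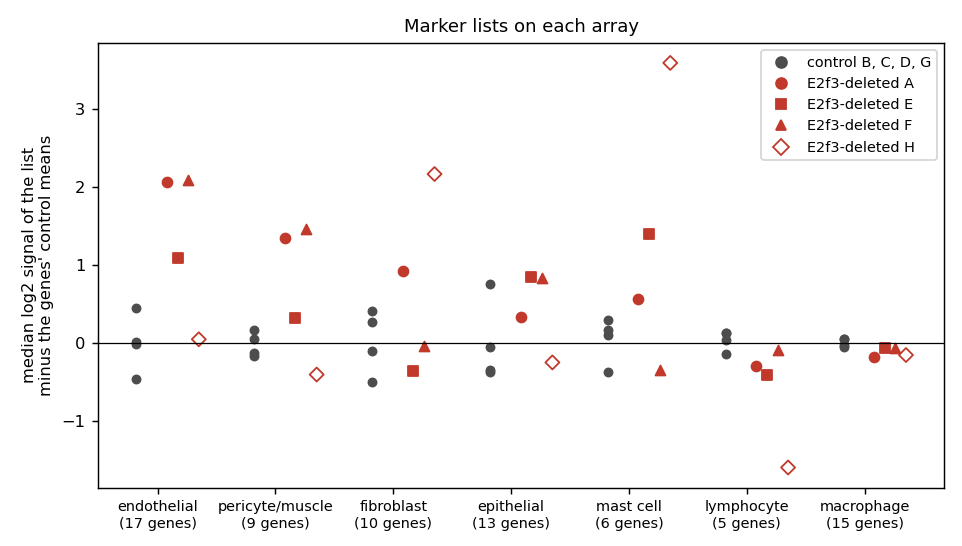
Median log2 signal of 7 marker lists on each array, after subtracting each gene's control mean (y axis); grey points are controls and red symbols the 4 E2f3-deleted replicates. Endothelial markers are near 2 in A and F, at 1.09 in E and at 0.043 in H, while fibroblast and mast cell markers are highest in H.

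**Figure D5:**
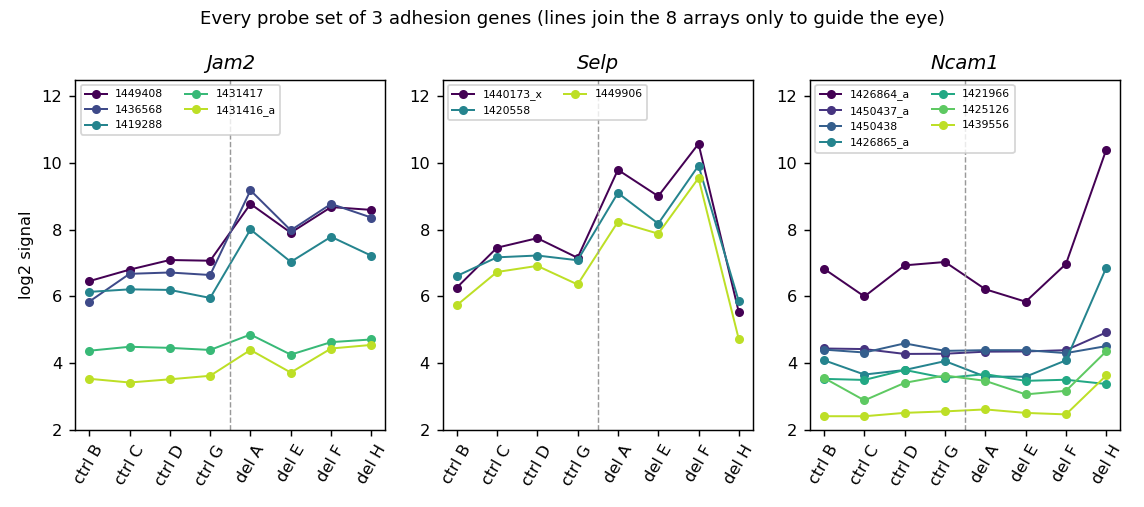
Log2 signal (y axis) of every probe set of Jam2, Selp and Ncam1 on the 8 arrays (x axis), with lines joining the values of 1 probe set. Jam2 is above all controls on the 4 E2f3-deleted arrays in its 3 brighter probe sets, Selp on A, E and F with H lowest, and the brightest Ncam1 probe set reaches 10.40 on H.

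The remaining adhesion molecules were unlike one another. Ncam1, the neural cell adhesion molecule, had 6.83, 6.0, 6.93 and 7.03 in controls and 6.22, 5.84, 6.97 and 10.40 in E2f3-deleted macrophages. H alone was high, and A, E and F lay at or below the upper controls (difference 0.66, SE 0.92, interval −1.46 to 2.78). Without H the difference was −0.35, so the direction rested on that array. A second Ncam1 probe set had 3.59, 3.59, 4.08 and 6.86 in A, E, F and H. Mcam, found on endothelium and pericytes, gave 7.80, 7.77, 8.32 and 7.83 and 8.49, 8.17, 8.95 and 7.91, with A and F above the controls and H among them (difference 0.45, limma adjusted p = 0.407, 0.26 without F and 0.61 without H). Alcam, the ligand of CD6, was lower on all 5 of its probe sets. Its brightest had 10.05, 10.22, 10.35 and 10.25 in controls and 10.01, 10.23, 9.79 and 9.49 in E2f3-deleted macrophages, of which A, F and H lay under the lowest control and E did not (difference −0.34, SE 0.15, limma adjusted p = 0.367, and −0.21 without H). Cadm1 had 10.94, 10.88, 10.77 and 11.08 and 11.04, 10.89, 10.49 and 10.84, a difference of −0.10 (interval −0.38 to 0.18), and F was its lowest array. Differences of −0.13 (interval −0.36 to 0.090) and 0.013 (interval −0.47 to 0.50) were found for Cd9, a tetraspanin that associates with integrins, and L1cam.

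The E2f3-deleted arrays varied more than the controls. The SD was larger in that group for 28 of the 34 tested adhesion genes (82.4%), beside 67.7% of all genes tested. Replicate H was the lowest of the 8 arrays for 15 of 34 (44.1%), beside 30.1% of all genes, and replicate A the highest for 10 (29.4%), beside 12.7%. Relative to the 4 controls, A exceeded their range for 17 of the 34, E for 11, F for 11 and H for 10, while 7, 5, 9 and 17 lay below it. Over all genes tested the shares above were 24.9%, 18.6%, 23.9% and 24.9% and those below 32.0%, 22.7%, 23.1% and 41.8%.

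Genes that act with integrins were read from 3 further lists. Of 38 adaptors and signalling proteins at the integrin tail, 33 had a probe set and 32 passed the filter; 13 were higher and 19 lower (median −0.036). An unadjusted p under 0.05 was found in 7 (21.9%, background 14.2%), 4 higher and 3 lower, and 0 passed after adjustment. Parva, an actin-binding parvin of the complex with Ilk, had 6.92, 6.75, 7.46 and 7.37 in controls and 8.20, 7.93, 8.45 and 8.62 in E2f3-deleted macrophages (difference 1.17, SE 0.20, limma adjusted p = 0.158). Fermt2, the kindlin of most adherent cells, had 0.95 (SE 0.21, limma adjusted p = 0.186), and the scaffold Bcar1 0.66 (SE 0.17). In contrast Parvg, the parvin of blood cells, had 10.99, 10.87, 10.68 and 10.88 and 10.46, 10.63, 10.39 and 10.52, a difference of −0.35 (SE 0.083, limma adjusted p = 0.195). In 5 of the 32 the groups did not overlap (15.6%, background 8.48%). Parva, Fermt2 and Bcar1 were above all controls on every E2f3-deleted array (background 4.26% for higher). Parvg and Tln1, which encodes talin, were below them (background 4.22% for lower). Tln1 had a difference of −0.27 (SE 0.086, limma adjusted p = 0.264). Rap1b, a small GTPase that activates integrins, had −0.025. Fermt3, the kindlin of blood cells and chosen after its value was seen, had −0.21 (limma adjusted p = 0.446).

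Ligands of integrins, most of them matrix proteins, were mostly higher: of 28, 25 had a probe set and 21 passed the filter, of which 18 were higher and 3 lower (median 0.65), Lama3 only through the E2f3-deleted arrays. These counts include the cell-surface ligands Cdh1 (0.26) and Madcam1 (−0.11). An unadjusted p under 0.05 was found in 11, all higher (52.4%, background 14.2%), 4 did not overlap between groups (19.0%, background 8.48%), and 0 passed after adjustment. The chains of collagen IV, the network of basement membranes and a ligand of the Itga1 product, were among them. Col4a1 had 11.57, 10.84, 11.90 and 11.13 in controls and 12.73, 11.96, 12.85 and 13.26 in E2f3-deleted macrophages (difference 1.34, SE 0.31, limma adjusted p = 0.193), and Col4a2 1.42 (SE 0.31). Both exceeded all controls on every E2f3-deleted array. The laminin chains Lamb2 and Lama4 had 0.65 (SE 0.14) and 0.95 (SE 0.27), and fibronectin, Fn1, −0.17 (interval −0.51 to 0.16). On A, E, F and H the endothelial and fibroblast medians were 2.06, 1.09, 2.08 and 0.043 and 0.92, −0.37, −0.046 and 2.16, and the part of those cells in the ligand values was not tested.

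Other leukocyte and vascular adhesion genes formed the last list, with 28 of 35 on a probe set and 20 past the filter, 14 higher and 6 lower (median 0.17). Nrcam passed the filter only through E2f3-deleted H, at 10.3 against 4.56, 4.81 and 5.58 in A, E and F (difference 0.56, and −0.77 without H). Of the 20, 5 had an unadjusted p under 0.05, all higher (25%, background 14.2%), and 0 passed after adjustment. Cd99l2, which acts in leukocyte passage through vessel walls, had 8.49, 8.52, 8.58 and 8.57 in controls and 8.86, 8.79, 8.85 and 9.07 in E2f3-deleted macrophages (difference 0.35, SE 0.070, limma adjusted p = 0.160). Cd34, a sialomucin of vessels and progenitors, had 1.14 (SE 0.26), the junction protein Nectin3 1.02 (SE 0.25) and Cd151, a tetraspanin that binds laminin receptors, 0.42 (SE 0.13). In these 4 of 20 the groups did not overlap (20%, background 8.48%, and 4.26% for higher). Cd53, a tetraspanin of leukocytes, had −0.16 (interval −0.42 to 0.091).

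The labels give each scan file a letter, which for most arrays is not the letter of its title, and reading the scan file letter as the replicate would exchange control B and E2f3-deleted F. With that grouping the difference of Jam2 was 0.52, of Itga1 0.36, of Itgal −0.19, of Selp −0.59 and of Icam2 −0.0090. No adhesion gene was then without overlap between groups (background 2.41% over all genes), and 3 of 34 had an unadjusted p under 0.05 (8.82%, background 4.11%).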

How the data were processed

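The authors deposited log2 signals of 45101 probe sets on 8 Affymetrix arrays, made with RMA per the submitters' processing notes, a method that corrects background, quantile-normalizes and summarises probes; its version is not given in the sources used here. Total RNA was extracted with Trizol and biotinylated cRNA hybridised, per the labels' protocols. RMA equalises array distributions and so hides a change common to most genes. Values were used as deposited, grouped by title.

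Probe sets were named from the platform annotation (34945 with 1 symbol, 932 with several and 9160 with none here, beside 64 controls), checked by Entrez identifier against RefSeq of GRCm38.p6 (34741 found, 0 updated). Each gene took its brightest probe set. A mean at or above the 40th percentile (log2 5.998) was required, leaving 10916 genes. Differences were fitted with limma 3.58.1 in R 4.3.3 (lmFit, eBayes, two-sided, all 8 arrays, no covariate) and p-values adjusted by Benjamini-Hochberg over all genes tested. The fit was checked on simulated data. The number of arrays limits precision.

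The members, lists and alternatives were chosen with earlier results of these data known. Full values are given for members past an unadjusted p of 0.05 or without overlap and for the brightest and most different member of each role; of each pathway list the 4 genes with the smallest p and the brightest are named, and of each marker list the counts and per-array medians, with others added where stated or where they bear on a member. The brightest marker of each list was Mmrn2 (endothelial), Acta2 (pericyte and muscle), Col1a2 (fibroblast), Krt8 (epithelial), Cpa3 (mast cell), Cd2 (lymphocyte), Irf8 (dendritic), Ltf (neutrophil), Pf4 (platelet) and Lyz2 (macrophage). Neutrophil markers, higher in 3 of 5, had per-array medians of −0.62, 0.74, 0.83 and −0.32 in A, E, F and H. At most 0.317% of values were identical between 2 arrays, so each array counted once.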

Additional observations from a re-analysis of the deposited data

Results flagged for a closer look

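In 78 groups examined (39 genes, 2 groups of 4 arrays), 6 held an array far from the other 3, or 7.69%, where chance flags about 1 in 20. In E2f3-deleted macrophages Itga2b was 8.29 in H, against 7.29 to 7.43 in the other 3. On the same array Itgb4 was 6.46, below 7.42 to 7.58. For Itgb8 it was F that stood apart, at 8.23 below 8.98 to 9.02. Among controls, replicate D was apart for Itgal (8.98, below 9.22 to 9.26), Itgb4 (7.47, above 6.72 to 6.77) and Mcam (8.32, above 7.77 to 7.83).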

How the results depend on the processing

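The count of 0 genes past an adjusted p of 0.05 (limma) was the same under another choice of probe set, filter, scaling, prior, weights, scan letter grouping or an adjusted p of 0.1, while single arrays left out gave 0 to 60. Left out in turn, the arrays gave 1009 to 1854 genes with an unadjusted p under 0.05 and 1147 to 1819 without overlap. For the adhesion genes they gave 4 to 12 and 5 to 10, and a median difference of −0.033 to 0.065. A filter at the 60th percentile gave 944 and 571 genes (13.0% and 7.85%) and 3 and 2 adhesion genes (14.3% and 9.52%). The median difference there was −0.083, over the 21 adhesion genes that passed that filter. Array weights gave 12 adhesion genes with an unadjusted p under 0.05 (35.3%, background 16.1%), and averaging each gene's probe sets a median of −0.033. Grouping by scan letter gave 449 and 263 genes and 3 and 0 adhesion genes. Differences of 19 of 39 genes kept their direction under all 16 alternatives, single probe sets aside. The reversed ones were, with the mean of probe sets, Itgav −0.033, Itga6 −0.041 and L1cam −0.00016; with quantile normalization, L1cam −0.0064; with median centring, Itga6 −0.0022; and with array weights, Itga6 −0.031 and Cd44 0.028. By scan letter they were Itgb7 0.0086, Itgb3 −0.14, Itgb5 0.017, Itga3 −0.082, Itga9 0.073, Itgb4 −0.10, Icam2 −0.0090, Vcam1 0.33, Selp −0.59, Mcam −0.12, L1cam −0.15 and Cadm1 0.12. Other probe sets past the filter gave Itgav −0.11, Itga6 −0.091, Itga9 0.088 and Vcam1 0.025, and dim ones, not among these alternatives, also opposed the brightest for Itgav, Itgb6, Itga3, Itgb1, F11r, Ncam1 and L1cam. With arrays left out, differences ranged from −0.19 to 0.078 for Vcam1, from −0.14 to 0.22 for L1cam, from −0.082 to 0.062 for Itga6, from −0.043 to 0.34 for Itgae, from −0.18 to 0.0055 for Cadm1, from −0.21 to 0.089 for Itga4, from −0.19 to 0.088 for Itgb7, from −0.11 to 0.0090 for Icam1, from −0.21 to 0.016 for Selplg, from −0.21 to 0.058 for Cd44 and from −0.35 to 1.17 for Ncam1. Without reversal they also moved by over 1.5 times for Itga9 (−0.14 to −0.039), Itgb1 (−0.10 to −0.024), Cd9 (−0.20 to −0.057), Itga2 (−0.17 to −0.042) and Itgb6 (−0.12 to −0.052). The cause was not tested. No paired analysis was possible because the groups share no replicate letter. Groups of 4 arrays and dim signals limit what could be detected: 5 adhesion genes lay under the filter.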
